A study of Mus musculus with 10 samples.

Results

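Ionocytes, tuft cells and neuroendocrine cells are rare cells of the airway lining, and 10 genes that mark them were read in the nasal epithelium of embryos with and without the miR-34 and miR-449 microRNAs. The genes are Foxi1, Ascl3 and Cftr for ionocytes, Pou2f3, Trpm5, Il25 and Avil for tuft cells, and Chga, Calca and Resp18 for neuroendocrine cells. They were chosen by gene symbol: a probe set counted when the platform's annotation gave it that single symbol. Of the 10 genes, 9 had a probe set, 1 each, among 22180 genes with a named probe set. No probe set carried the symbol Calca in the annotation used here, so its level is not given.

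The respiratory epithelium of the nose had been cut by laser capture from paraffin sections of mouse embryos at E16.5, and RNA of each embryo was hybridised to 1 Affymetrix array. The wild-type group (WT) held 5 embryos, 4 female and 1 male (WT 3). The triple knockout group (TKO, deleted on both chromosomes for miR-34a, for miR-34b/c and for miR-449a/b/c) held 5 embryos, 2 female and 3 male (TKO 2, TKO 4 and TKO 5). All 5 lack every one of these loci, so nothing here separates one microRNA from another. The labels used here name no strain and do not say whether embryos came from one litter.

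Ionocytes move ions across the epithelium, carry much of the CFTR chloride channel of the airway, and depend on the forkhead factor FOXI1. Tuft cells sense chemicals through a taste-like cascade that ends in the cation channel TRPM5, depend on the POU factor POU2F3, and release the cytokine IL-25. Neuroendocrine cells store peptides such as CGRP, the product of Calca, in dense-core granules. In the mouse nose similar genes are also used by other cells: POU2F3 by keratinocytes of stratified epithelium, and granule proteins by neurons.

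What separates the groups is a set of microRNAs with one seed, the stretch at bases 2 to 8 by which a microRNA pairs with its targets. Mature 5p sequences of 4 of the 6 deleted genes stood in the RefSeq table (build GRCm38.p6), and they are shown because their loss defines the knockout. The seed is in capitals, the sequences run 5′ to 3′, and miR-34c and miR-449b are named only.

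mmu-miR-34a-5p: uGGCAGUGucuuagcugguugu

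mmu-miR-34b-5p: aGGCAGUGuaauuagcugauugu

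mmu-miR-449a-5p: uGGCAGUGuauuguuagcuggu

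mmu-miR-449c-5p: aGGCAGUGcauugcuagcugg

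All 4 share 1 seed, and no other of the 1738 mature sequences in that table has it. On the arrays, the Mir449c probe set, at 7.26 ± 0.28 in WT (SD, n = 5), had a log2 change of -3.41 in TKO (limma adjusted p = 3.08e-05), and Mir449a one of -1.81 (limma adjusted p = 0.000426). The Mir449b probe set, at 12.2 ± 0.040 in WT, still read 11.8 ± 0.17 in TKO (SD, n = 5 each; change -0.33, limma adjusted p = 0.0259), and Mir34b had a change of -0.28 (limma adjusted p = 0.129). Mir34a and Mir34c lay under the filter on dim genes, with changes of -0.15 and -0.19 (limma adjusted p = 0.633 and 0.318 with no filter), so those probe sets do not show the loss of miR-34.

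Levels are given as RMA values in log2 units, so that a step of 1 is a doubling. The scale differs from probe set to probe set, so that levels are compared between arrays and not between genes. Across all probe sets the arrays correlated at 0.975 to 0.989. Over 16635 genes, limma with sex as a covariate called 730 up in TKO and 186 down at a Benjamini-Hochberg adjusted p below 0.05. The mean level of 9 ciliated cell genes lay between 9.72 and 10.3 on every array, though 7 of the 9 had changes below 0. Of these 9, 1 was called lower, beside 1.12% of all genes tested. Some markers of other tissue varied far more. The mean of 10 genes of keratinizing epithelium, such as Krt1 and Krt10, ran from 5.77 to 9.59. That of 8 general neuron genes ran from 5.85 to 8.05, and that of 14 olfactory neuron genes from 5.69 to 7.31. Means of 10 mesenchyme and 9 skeletal muscle genes ran from 6.74 to 8.30 and from 5.13 to 6.84. The keratinizing list was drawn up after the values of Pou2f3 were seen. Olfactory neuron genes were higher on every female array (5.90 to 7.31) than on any male array (5.69 to 5.86), and sex is unbalanced between the genotypes. In such bulk samples fewer cells of a type and less RNA per cell cannot be told apart.

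None of the 9 measured genes differed between genotypes at the adjusted threshold, where 5.51% of all genes tested did (4.39% higher and 1.12% lower in TKO). In all 9 the arrays of WT and TKO overlapped, while the arrays did not overlap for 7.60% of genes. At an unadjusted limma p below 0.05 there were 2 of 9, Ascl3 and Resp18, and over all genes this share was 20.9%. An exact permutation test over every way to assign the arrays compared plain means, without sex. It gave 1 of 9 at an unadjusted p below 0.05 (Resp18), with 3301 among all genes tested. The smallest p of this test, 0.00794, became 0.104 after adjustment over all genes. It therefore called none of the 9 and 0 genes in all, and could have called none. All 9 passed the filter on dim genes, a mean log2 value of 4.58 over all arrays. The 3 ionocyte genes had changes above 0 and the 4 tuft genes changes below 0, where 49.8% of all genes tested lay above 0. For Trpm5 the change was -0.033 with sex in the model and 0.0066 as the difference of plain means. The longer lists below were mixed: 10 ionocyte genes lay above 0 and 6 below, and 9 tuft genes above and 8 below.

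**Figure D1:**
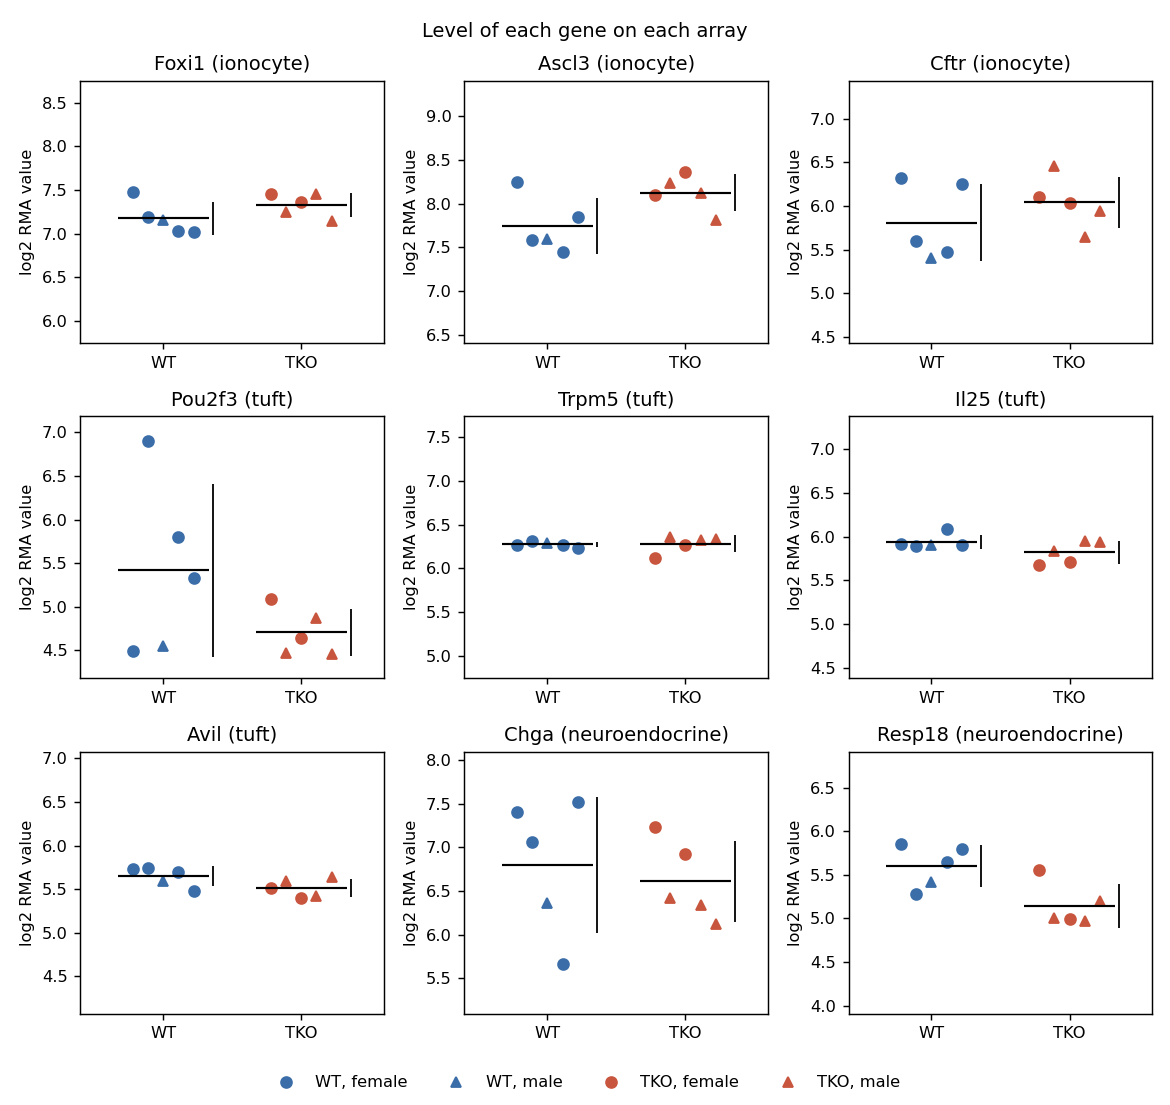
Log2 RMA value (vertical axis, each panel spanning 3 log2 units) of each gene on each array, by genotype (horizontal axis), with circles for female and triangles for male embryos, a line at the mean and a bar of 1 SD on each side (n = 5). WT and TKO overlap in every panel, Trpm5 is nearly flat across the 10 arrays, and Pou2f3 and Chga are the most spread.

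Ascl3, a bHLH factor of ionocytes and of duct cells in salivary glands, had the smallest p of the 9. On the WT arrays 1 to 5 it was 8.25, 7.58, 7.59, 7.44 and 7.85, and on the TKO arrays 1 to 5 it was 8.09, 8.24, 8.36, 8.12 and 7.81. The 5 TKO arrays lay above 3 of the WT arrays, while WT 1 lay among the highest TKO arrays. Its WT mean was 7.74 ± 0.32 and its TKO mean 8.13 ± 0.21 (SD, n = 5 each). The log2 change was 0.45 with a standard error of 0.16, or 1.37-fold with a 95% interval of 1.08 to 1.73 (limma p = 0.0129, adjusted p = 0.116, exact permutation p = 0.0714). Without WT 1 the log2 change was 0.55 (limma adjusted p = 0.0333), the single setting of 26 in which any of the 9 genes passed.

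Foxi1, the factor that specifies ionocytes, was 7.48, 7.19, 7.16, 7.03 and 7.02 on the WT arrays and 7.46, 7.24, 7.37, 7.45 and 7.15 on the TKO arrays. WT 1 was again the highest WT array, and the groups overlapped. The log2 change was 0.19 with a 95% interval from -0.047 to 0.43 (limma adjusted p = 0.349).

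Cftr, the chloride channel gene, split the WT arrays: WT 1 and WT 5 were at 6.32 and 6.26, while WT 2, WT 3 and WT 4 were at 5.60, 5.40 and 5.48. The TKO arrays were at 6.11, 6.46, 6.04, 5.65 and 5.94, between and beyond these. Its log2 change was 0.32 with a 95% interval from -0.15 to 0.79 (limma adjusted p = 0.434), so a 1.73-fold increase and no increase both lay within it. Without WT 3 it was 0.16.

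Ascl3 varied from array to array with both other ionocyte genes. After each genotype's mean was taken out, Pearson's r over the 10 arrays was 0.67 for Foxi1 and Ascl3, 0.72 for Ascl3 and Cftr and 0.16 for Foxi1 and Cftr. These are descriptions of 10 arrays, and Ascl3 and Cftr were about as close to Chga, a gene of another cell type (0.68 and 0.65).

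The promoter of Ascl3 is shown since FOXI1 is a forkhead factor and the levels of Foxi1 and Ascl3 varied together. It is the RefSeq window of 300 bases on the minus strand, chr7:109731683-109731982 (GRCm38.p6), from before the gene's start to just past it, 5′ to 3′, with the forkhead core TGTTTA or its reverse complement in capitals.

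Ascl3 promoter: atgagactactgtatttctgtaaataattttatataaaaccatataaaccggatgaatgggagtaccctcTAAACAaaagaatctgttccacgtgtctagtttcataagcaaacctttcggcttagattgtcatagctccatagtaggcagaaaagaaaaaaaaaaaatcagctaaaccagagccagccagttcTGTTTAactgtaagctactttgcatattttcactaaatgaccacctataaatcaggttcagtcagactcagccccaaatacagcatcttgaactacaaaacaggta

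The core stood at bases 71 to 76 of the window, on the other strand, and at bases 195 to 200 as printed. Searched on both strands, TGTTTA was in 1 of the 8 promoters of these genes found in the table and in 13.4% of all 32851 promoters of that length. The octamer ATGCAAAT, a site for POU factors, was in none of the 8 and in 1.74% of all. The E-box CAGCTG, which reads the same on both strands, was in 3 of the 8 (Chga, Resp18 and Calca) and in 16.3% of all. The promoters of Pou2f3 and Il25 are named only.

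Of 20 other listed genes of ionocytes 18 had a probe set, 16 were tested and none passed in the model with sex. Of the 16, 1 had an unadjusted limma p below 0.05, beside 20.9% of all genes tested. Changes above 0 were found for 10 of the 16, beside 49.8% of all genes. The median log2 change of the 16 was 0.078, beside a median of -0.00052 over all genes tested, and without TKO 1 it was -0.0013. Stap1, an adaptor protein gene listed among ionocyte markers of the mouse trachea, had the smallest p. It was 6.24, 5.82, 5.93, 5.60 and 5.99 on the WT arrays and 6.11, 6.71, 6.71, 6.33 and 6.28 on the TKO arrays. Only WT 1 reached into the TKO range, and the log2 change was 0.50 with a standard error of 0.16 (limma adjusted p = 0.0932). Moxd1, a monooxygenase, and P2ry14, a receptor for UDP-sugars, had changes of 0.23 and 0.27 (limma adjusted p = 0.239 and 0.339). Atp6v1g3, a subunit of the proton pump that acid-secreting cells carry, had a change of -0.56 (limma adjusted p = 0.299), with WT 5 at 6.94 far above the TKO arrays (4.97 to 5.51). Its change was -0.34 without WT 5 and -0.35 without TKO 3. It was -0.22 once a non-epithelial score, from 5 marker lists (mesenchyme, endothelium, leukocyte, glia and skeletal muscle), entered the model, and it passed with the score of both neuron lists as a covariate (-0.64, limma adjusted p = 0.0348). The other proton pump subunits, Atp6v1b1, Atp6v0a4 and Atp6v1c2, had changes of 0.10, 0.10 and -0.044. With sex in the model Atp6v0d2 had a change of -0.54 with a 95% interval from -1.32 to 0.24, while the difference of its plain means was 0.21.

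Among the tuft genes Pou2f3 stood apart. Pou2f3, the factor tuft cells need, was 6.90 on WT 2, 5.80 on WT 4 and 5.33 on WT 5, but 4.50 on WT 1 and 4.55 on WT 3. On the TKO arrays it was 5.08, 4.47, 4.65, 4.88 and 4.46, and the arrays WT 1, WT 3, TKO 2 and TKO 5 lay below the level of the filter. WT averaged 5.42 ± 0.99 and TKO 4.71 ± 0.27 (SD, n = 5 each). The log2 change was -0.47 with a 95% interval from -1.32 to 0.38 (limma adjusted p = 0.544), and it was -0.19 without WT 2, -0.26 without TKO 3, -0.77 without WT 3 and -1.25 with the non-epithelial score in the model (limma adjusted p = 0.223 to 0.85 in these).

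Trpm5, the cation channel of the taste cascade, was the flattest of the 9. It was 6.26, 6.32, 6.29, 6.27 and 6.24 on the WT arrays and 6.12, 6.36, 6.27, 6.33 and 6.34 on the TKO arrays. Its log2 change was -0.033 with a 95% interval from -0.20 to 0.13, a fold between 0.873 and 1.09 (limma adjusted p = 0.851). Its residual SD of 0.072 was smaller than that of all but 4.02% of the genes tested, whereas that of Pou2f3, 0.73, was larger than that of 99.2% of them.

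Il25, the cytokine tuft cells release toward innate lymphoid cells, was 5.91, 5.89, 5.90, 6.08 and 5.90 on the WT arrays and 5.67, 5.84, 5.70, 5.95 and 5.94 on the TKO arrays. The log2 change of Il25 was -0.16 with a 95% interval from -0.36 to 0.030 (limma adjusted p = 0.322), and without WT 3 it was -0.26. Avil, which encodes an actin-binding protein of tuft cells and sensory neurons, was 5.73, 5.75, 5.60, 5.70 and 5.48 on the WT arrays and 5.51, 5.59, 5.40, 5.42 and 5.64 on the TKO arrays, and its log2 change was -0.15 (limma adjusted p = 0.409). For both, some TKO arrays lay below every WT array and others within the WT range. The array-to-array pattern of Pou2f3 was unlike that of the other 3: r was -0.075 with Trpm5, -0.028 with Il25 and 0.15 with Avil, while Trpm5 and Il25 gave 0.61.

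Of 30 further tuft genes 25 had a probe set, 17 were tested and none passed. Beside 20.9% of all genes tested, none of the 17 had an unadjusted limma p below 0.05. The median log2 change was 0.026, and it was -0.054 without TKO 3 and 0.093 without TKO 1. The smallest p were those of Gnb3, a G protein subunit of taste cells (-0.25), Tas1r3, a subunit of sweet and umami receptors (0.22), Hpgds, a prostaglandin synthase also found in mast cells (-0.24), and Plcg2, a phospholipase also found in leukocytes (0.14), with limma adjusted p of 0.28, 0.34, 0.369 and 0.513. Defining genes of the cascade and of the mature cell lay under the filter, among them Gnat3, the taste G protein, at 4.07 ± 0.22 on WT and 4.11 ± 0.22 on TKO arrays, and Sucnr1, the succinate receptor, at 3.33 ± 0.15 on both (SD, n = 5 each). No detection call is given with the values. For transcripts that are absent in one sex the arrays read 2.79 to 4.46 (Uty, Kdm5d and Eif2s3y in females) and 4.72 to 5.10 (Xist in males), which shows how far background differs between probe sets.

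Chga, the granule protein chromogranin A of endocrine cells and neurons, ranged over nearly 2 log2 units. It was 7.40, 7.06, 6.36, 5.67 and 7.52 on the WT arrays and 7.24, 6.42, 6.93, 6.34 and 6.12 on the TKO arrays. The 5 highest arrays were all female, from both genotypes, and the lowest was a female WT array, WT 4. Its log2 change was 0.084 with a 95% interval from -0.60 to 0.77 (limma adjusted p = 0.912), a fold between 0.659 and 1.70. The difference of the plain means was -0.19, since sex entered the model.

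Resp18, a protein of the granules of endocrine cells, was 5.85, 5.29, 5.42, 5.64 and 5.80 on the WT arrays and 5.55, 5.00, 4.99, 4.97 and 5.20 on the TKO arrays. Of the TKO arrays, TKO 1 alone reached into the WT range. WT averaged 5.60 ± 0.24 and TKO 5.14 ± 0.25 (SD, n = 5 each), and the log2 change was -0.37 with a 95% interval from -0.69 to -0.051 (limma p = 0.0266, adjusted p = 0.171, exact permutation p = 0.0317, adjusted 0.197). Without TKO 3 the change was -0.22, and it was -0.062 with the non-epithelial score in the model (limma adjusted p = 0.548 and 0.916). Of the lists in that score skeletal muscle moved most, with 2 of 9 genes called lower and a median of -0.74. Mesenchyme followed, with 1 of 10 called lower and a median of -0.44, where 1.12% of all genes tested were called lower. Over the 10 arrays, with genotype means left in, Resp18 had an r of -0.0014 (rho -0.10) with the mesenchyme mean. That r was -0.52 without WT 2 and TKO 3 and 0.75 within the 6 females, so it was not steady. The relation of Resp18 with the skeletal muscle mean was not computed.

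Of 30 further neuroendocrine genes 28 had a probe set, 22 were tested and none passed. Their median log2 change was -0.061 (-0.086 to 0.017 with an array left out). Of the 22, 8 were above 0 and 14 below, where 49.8% of all genes tested lay above 0. Beside 20.9% of all genes tested, 1 of the 22 had an unadjusted limma p below 0.05. That gene was Uchl1, a ubiquitin hydrolase abundant in neurons and neuroendocrine cells, at 7.89, 7.49, 7.07, 6.96 and 8.34 on the WT arrays and 8.27, 7.89, 8.48, 7.76 and 7.68 on the TKO arrays. Its log2 change was 0.71 with a standard error of 0.22 (limma adjusted p = 0.0853). It passed with the score of the general and olfactory neuron lists as a covariate (0.64, limma adjusted p = 0.00762) and without WT 5 (0.84, limma adjusted p = 0.0113). Its change was 0.47 without sex in the model, 0.44 with the keratinizing score as a covariate and 0.36 as the mean of its probe sets (limma adjusted p = 0.302, 0.392 and 0.0703). Neurod1, a bHLH factor of neuron and endocrine precursors, was highest on WT 5 (6.44) and WT 1 (5.88), with a change of -0.51 (limma adjusted p = 0.302). Ptprn2, a membrane protein of secretory granules, and Calcb, which encodes the second CGRP peptide of the mouse, had changes of -0.19 and -0.26 (limma adjusted p = 0.26 and 0.351).

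**Figure D2:**
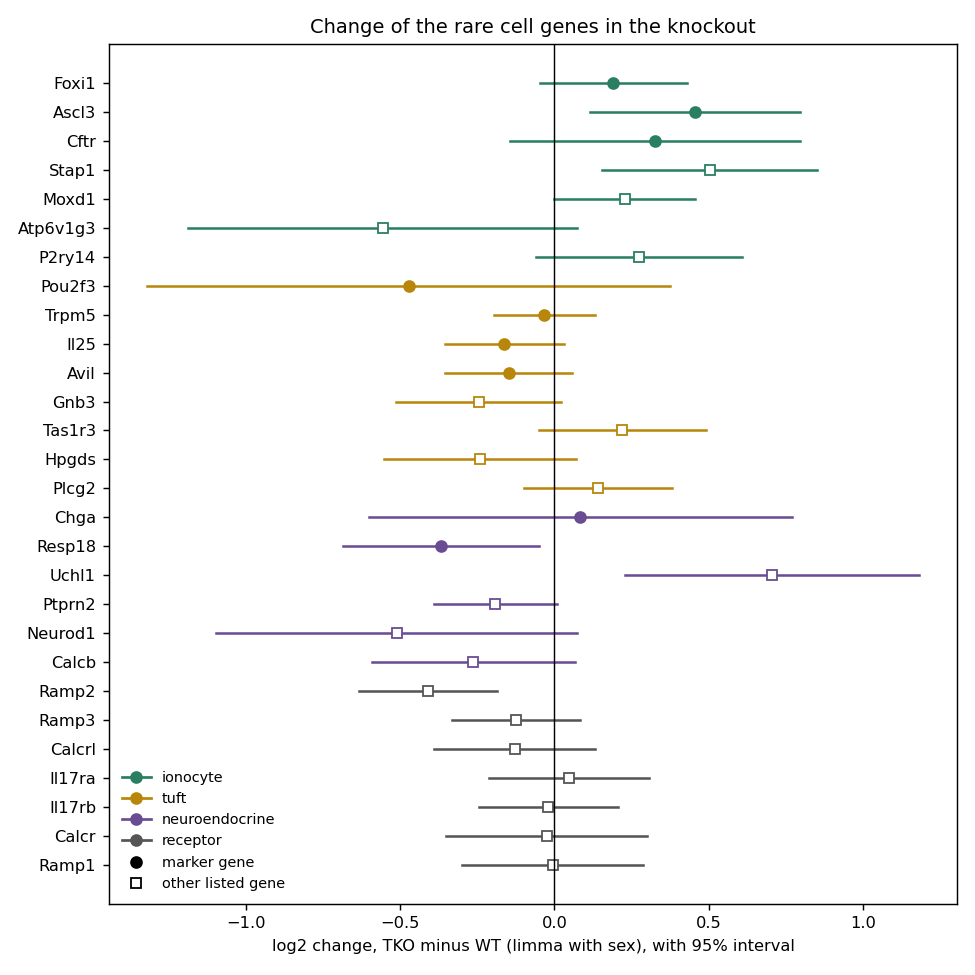
Log2 change, TKO minus WT, from limma with sex as a covariate (horizontal axis), with its 95% interval (line), for the 9 marker genes (filled circles), the genes named from the ionocyte, tuft and neuroendocrine lists and the 7 receptor genes (open squares). Among those shown, Ramp2 (-0.41) passed the adjusted threshold; the interval of Trpm5 is narrow and those of Pou2f3 and Chga are wide.

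The receptors of the secreted products were read as the other side of these signals. Of 7 listed, all tested, 6 had changes below 0 and 1 was called lower, which compares with 1.12% of all genes called lower. Ramp2, a partner of the receptor Calcrl that turns it toward adrenomedullin and is known from blood vessels, was 6.25, 6.07, 6.50, 6.19 and 6.26 on the WT arrays and 5.90, 6.03, 5.57, 6.35 and 6.13 on the TKO arrays. It fell by 0.41 on the log2 scale (standard error 0.10, limma adjusted p = 0.04), though its arrays overlapped. In 14 of the 26 other settings it did not pass, for example without TKO 3 (-0.31, limma adjusted p = 0.189), and the exact permutation p was 0.111. Of 8 endothelial genes 6 were tested: 1 was called lower, Tie1, and the median log2 change was -0.36. The mean level of these 6 ran from 4.96 to 5.74 in WT and from 4.85 to 5.58 in TKO. The change of Ramp2 was -0.26 (limma adjusted p = 0.406) once the non-epithelial score entered the model. Calcrl and Ramp1, the pair that forms the CGRP receptor, had changes of -0.13 and -0.0051, and Il17ra and Il17rb, the subunits of the IL-25 receptor, 0.048 and -0.021, with limma adjusted p between 0.599 and 0.989.

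**Figure D3:**
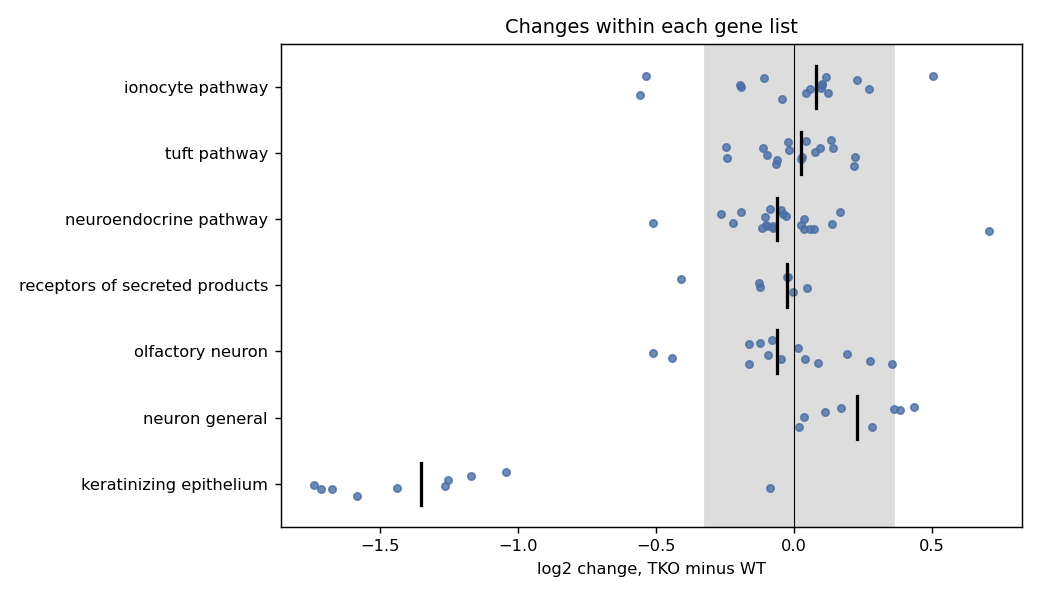
Log2 change, TKO minus WT (horizontal axis), of every tested gene (point) in each list (vertical axis), with a bar at the list's median and a grey band from the 5th to the 95th percentile of all 16635 genes (-0.32 to 0.36). The 3 rare cell lists centre near 0, while the keratinizing genes, a list drawn up after values were seen, have a median of -1.35.

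The levels of Pou2f3, Ascl3 and Chga varied from array to array with those of markers of other cells, Ascl3 inversely. Unlike the r between pairs of genes, the r with marker lists were taken with genotype means left in. Differences between the genotypes therefore enter them as well. Pou2f3 was highest on WT 2 and WT 4, the arrays on which the mean of the keratinizing genes was also highest, at 9.54 and 9.59. It was lowest on TKO 2, TKO 5 and WT 1, where that mean was 5.77, 6.80 and 6.96. WT 3 departed from this order: Pou2f3 was 4.55 there, while that mean was 8.21. On TKO 1 the values were 5.08 and 8.40. Over the 10 arrays Pearson's r between Pou2f3 and that mean was 0.80 and Spearman's rho 0.81, within the 6 females r was 0.85, and without TKO 2 and TKO 3, the arrays farthest from the median, it was 0.85. No p is given, since the list was drawn up after values were seen. None of the 10 keratinizing genes passed and their median log2 change was -1.35, with a mean level of 6.96 to 9.59 in WT and 5.77 to 8.40 in TKO. With their score as a covariate, a setting added after the data were seen, the change of Pou2f3 was 0.11 (limma adjusted p = 0.932).

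Ascl3 ran the other way. It was lowest on WT 4 and WT 2, and its r with the keratinizing mean was -0.79 (rho -0.78), -0.94 within the 6 females and -0.67 without TKO 2 and TKO 3. Stap1 did the same (r = -0.93, rho = -0.92, and r = -0.86 without those arrays). So did Cftr (r = -0.70, rho = -0.62, and r = -0.59 without those arrays), and Foxi1 less so (r = -0.35, rho = -0.27, and r = -0.37 without those arrays). With the mean of 10 secretory cell genes, Foxi1 had an r of 0.60 (rho 0.54) and Pou2f3 one of -0.77 (rho -0.49). Without WT 2 and WT 5 these r were 0.57 and -0.35. With the keratinizing score as a covariate the log2 change of Ascl3 was 0.22, that of Stap1 0.23, that of Foxi1 0.16 and that of Cftr -0.0024 (limma adjusted p = 0.501, 0.38, 0.657 and 0.999).

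Chga followed the neuron genes. It was 7.52 on WT 5, where the mean of the 8 general neuron genes was highest at 8.05, and 5.67 on WT 4, where it was 6.01. Over the 10 arrays r was 0.89 (rho 0.78) with the general neuron genes and 0.89 (rho 0.79) with the olfactory neuron genes. Without the 2 arrays farthest from the median, they were 0.84 and 0.82, and within the 6 females both were 0.88. Dclk1, a kinase used as a tuft marker and also made by neurons, followed them as well: r with the general neuron genes was 0.96 (rho 0.85), 0.92 without WT 5 and TKO 1, and 0.96 within females. Resp18 had an r of 0.56 (rho 0.42) with the general and of 0.66 (rho 0.75) with the olfactory neuron genes, and r was 0.30 with either once the arrays farthest from the median were left out. Among the tuft genes, Trpm5 ran against the olfactory neuron genes (r = -0.68, rho = -0.88, r = -0.80 without WT 1 and WT 5, and -0.37 within females). Il25 varied with the mesenchyme genes (r = 0.76, rho = 0.76, r = 0.77 without WT 2 and TKO 3, and 0.88 within females). Avil varied with the basal cell genes (r = 0.77, rho = 0.73, r = 0.61 without WT 1 and TKO 3, and 0.72 within females). These relations are among the strongest of those between the genes and 8 marker lists, and no p is given for them. None of the 8 general or the 14 olfactory neuron genes passed, and the mean level of the general genes ran from 5.96 to 8.05 in WT and from 5.85 to 7.53 in TKO. With the score of both neuron lists as a covariate the change of Chga was -0.0024 (limma adjusted p = 0.995) and that of Resp18 was -0.39 (limma adjusted p = 0.113). Whether these other tissues set the levels of the genes beside them was not tested.

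**Figure D4:**
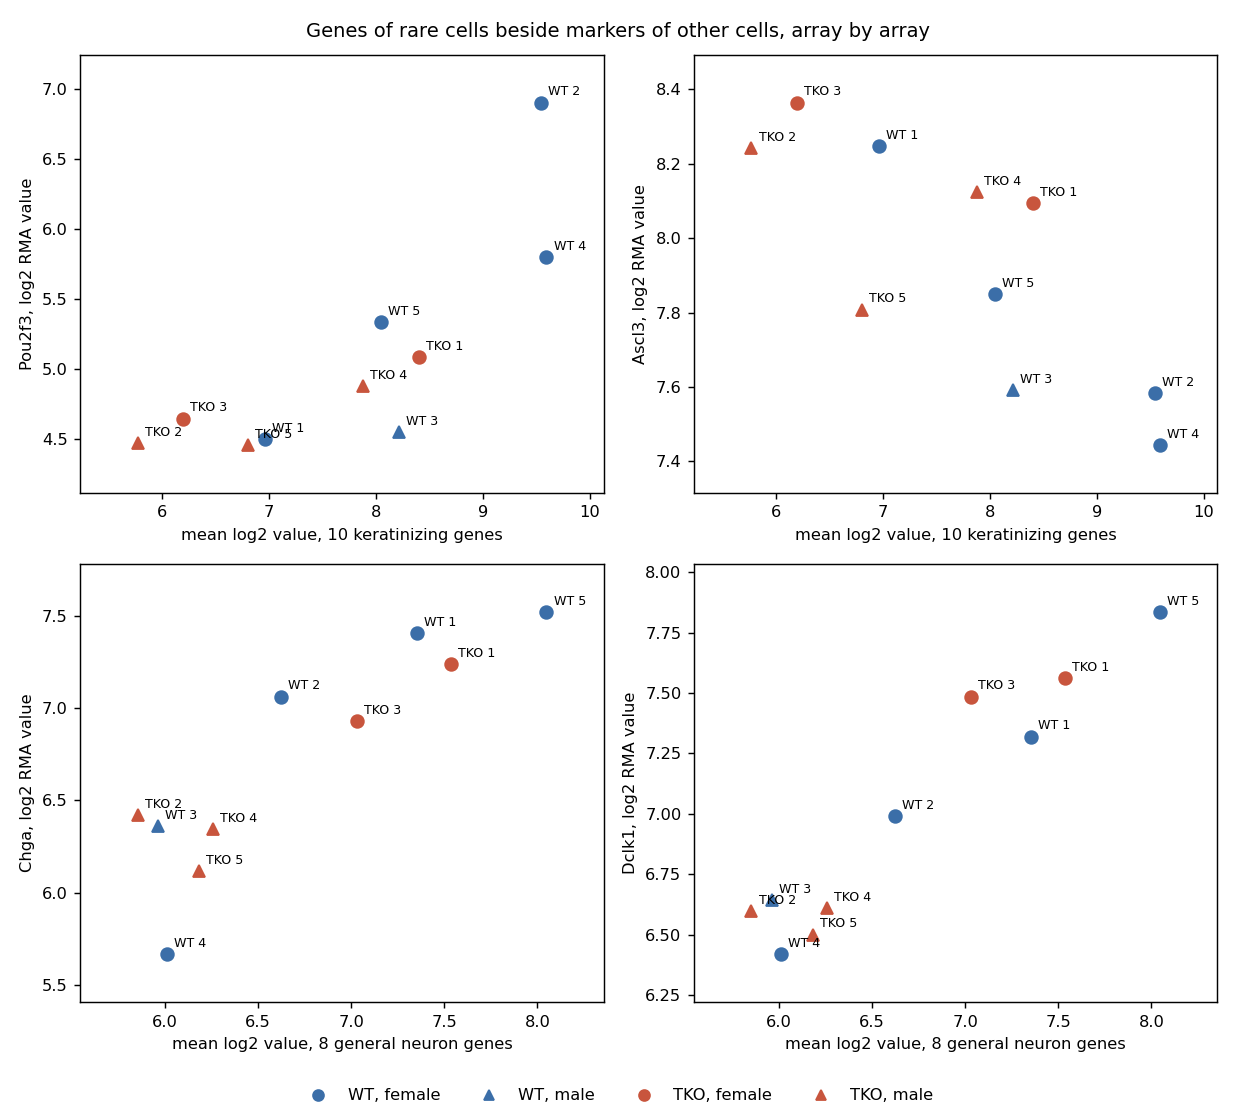
Log2 RMA value of a gene (vertical axes) against the mean log2 value of 10 keratinizing genes (upper panels) or 8 general neuron genes (lower panels), 1 point per array, coloured by genotype and shaped by sex. Pou2f3 is highest and Ascl3 lowest on WT 2 and WT 4. Chga and Dclk1 are high on WT 1, WT 5, TKO 1 and TKO 3, which are female. Chga on WT 2, also female, is at 7.06, above TKO 3 at 6.93.

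The pattern of each gene was also matched with all others. After the genotype means were taken out, the gene most like each over the 10 arrays was Plpp3 for Foxi1 (r = 0.93), Ipo13 for Ascl3 (0.96), Casp8 for Cftr (0.95) and Slc2a3 for Pou2f3 (0.98). It was Slc12a4 for Trpm5 (0.95), Ret for Il25 (0.96), Umod for Avil (0.95), Zdhhc2 for Chga (0.97) and Mmgt2 for Resp18 (0.96). Each is the highest of 16634 values from 10 arrays. Among the 36 pairs of the 9 genes themselves, 8 of 10 pairs of the same cell type had r above 0, and 8 of 26 pairs of different cell types did. The values overlapped, from -0.075 to 0.72 within a cell type and from -0.77 to 0.68 across cell types. All pairs reuse the same 9 genes and 10 arrays, and the share above 0 over all gene pairs was not computed.

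The genotype difference was compared between the sexes with an interaction term in limma. None of the 9 genes passed, their adjusted p lay between 0.994 and 0.999 and no unadjusted p was below 0.05, while 1 of 16635 genes passed and 705 had an unadjusted p below 0.05. WT held 1 male, so this comparison of the sexes rests on WT 3.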

How the data were processed

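Affymetrix arrays of 10 laser-captured nasal epithelia, 5 WT and 5 TKO, were analysed. Per the submitters' processing notes, the authors ran RMA through Expression Console (Affymetrix; version not given in the sources used here). RMA corrects background, equalises the arrays and sums up the probes of a set. The deposited values span 1.5 to 13.7 and were taken as log2. Of 41345 probe sets, 23521 had 1 symbol, 1814 several and 16010 none; 23328 matched RefSeq by Entrez ID.

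For each gene the probe set with the highest mean was kept, and genes under the 25th percentile were left out. The test between genotypes was that of limma 3.58.1, run under R 4.3.3 (labelled sex as a covariate, intensity trend, two-sided tests, Benjamini-Hochberg over 16635 genes, threshold 0.05); figures used matplotlib 3.10.9. Scores are means over list members of values centred per gene. The scripts were tested on simulated data. Precision is set by having 5 arrays a genotype, and p-values measure the spread between these embryos.

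The members and lists were chosen with earlier results of these data known. All members and the targeted microRNA genes were named, then from each list the genes past the threshold and those with the smallest p, up to 4, and the gene most like each member. Chga and other genes also named beside a marker list were singled out after their values were seen, as were Dclk1, the proton pump subunits, Gnat3, Sucnr1, Tie1, Ramp1 and Il17rb. Replicate numbers were checked for pairing: same-numbered arrays' deviations correlated at -0.13 to 0.38, so the numbers were not taken as pairs. The alternatives were models without sex, with the replicate number as a block or with marker scores as covariates, other filters, scalings, variance models and probe set rules, array weights, females only, an exact permutation test, and each array left out.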

Additional observations from a re-analysis of the deposited data

Results flagged for a closer look

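Within groups of 5 arrays, 3 of 50 groups examined held an array whose gap to its nearest neighbour was large against the group's range (Dixon's critical value 0.71), where chance gives about 5% of groups. Il25 on WT 4 was 6.08, with the other WT arrays between 5.89 and 5.91. Plcg2 on WT 5 was 5.33, with its nearest neighbour at 5.66. Ramp3 on WT 2 was 5.26, with its nearest neighbour at 5.48. The position of Pou2f3 on WT 2 (6.90, nearest 5.80) did not pass this criterion.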

How the results depend on the processing

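Over up to 26 other settings, Ascl3 kept its direction with log2 changes of 0.22 to 0.55, Foxi1 with 0.15 to 0.25, Il25 with -0.26 to -0.10, Avil with -0.21 to -0.10 and Resp18 with -0.51 to -0.062. One member, Ascl3, was called in 1 setting, without WT 1, so the number called ran from 0 to 1. The change of Cftr was -0.0024 and that of Pou2f3 0.11 with the keratinizing score as a covariate, while Pou2f3 was -1.25 with the non-epithelial score. The change of Trpm5 was 0.0066 without sex (and in the exact permutation test) and -0.078 to 0.020 with an array left out (the highest without TKO 1). That of Chga was -0.19 without sex and in the permutation test, -0.00014 with the replicate block, -0.0024, -0.086 and -0.18 with the neuron, non-epithelial and keratinizing scores, -0.025 without TKO 1, and -0.18 (without WT 4) to 0.20 (without WT 5) with an array left out. With the non-epithelial score Calcb was 0.049, Ramp3 0.040, Calcrl 0.10 and Il17ra -0.049; Il17ra was -0.018 without sex and in the permutation test, and -0.069 (without TKO 1) to 0.16 (without WT 3) with an array left out. The median of the ionocyte list ran from -0.0013 to 0.10 with an array left out, that of the tuft list from -0.054 to 0.093 and that of the neuroendocrine list from -0.086 to 0.017. The cause was not tested. The count of genes called, 916, was 1053 with the replicate block, 56 in females only, 113 with the non-epithelial score, 235 with the keratinizing score, 0 in the permutation test, whose smallest p is 0.00794, and 210 (without WT 3) to 1284 (without WT 5) when an array was left out, with 307 without TKO 3 and 552 without TKO 1. Genes with a sex by genotype interaction numbered 1, and 0 to 2 with an array left out. Of the genes called, 79.7% were higher; the scaling by array medians gave 86.8%. The interaction could not be fitted in females only, without sex or without WT 3, when WT holds no male, and was not run with the replicate block, the scores, all probe sets or permutation. The replicate block changed no call of a member. With 5 arrays a group, the intervals above set what could be seen.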
